A study of Homo sapiens with 8 samples.

Results

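The genes described here are the human G protein-coupled receptors for dopamine (DRD), serotonin (HTR), noradrenaline and adrenaline (ADRA1, ADRA2 and ADRB) and the muscarinic receptors for acetylcholine (CHRM), together with the serotonin-gated HTR3 channel subunits. They were chosen by symbol: every protein-coding gene of the count table whose GENCODE symbol begins with one of these stems, leaving out the HTRA proteases, which share only the letters. The rule found 36 genes of 60659, and no measured value entered it. There were 5 dopamine, 17 serotonin, 9 adrenergic and 5 muscarinic receptor genes.

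These receptors carry the signals of the monoamine transmitters and acetylcholine into the cell. Those coupled to Gs (DRD1, DRD5, HTR4, HTR6, HTR7 and the beta-adrenergic receptors) stimulate adenylyl cyclase, those coupled to Gi/o (DRD2 to DRD4, the HTR1 group, HTR5A, the alpha-2 adrenergic receptors, CHRM2 and CHRM4) inhibit it and open inwardly rectifying potassium channels, and those coupled to Gq (the HTR2 group, the alpha-1 adrenergic receptors, CHRM1, CHRM3 and CHRM5) activate phospholipase C beta. Sympathetic neurons, the lineage from which neuroblastoma arises, use noradrenaline as their transmitter and carry alpha-2 adrenergic receptors on their own terminals. ZMYND8 is a chromatin reader protein that binds modified histones.

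RNA-seq counts were available for 8 libraries of SK-N-SH, a human neuroblastoma cell line that contains neuroblast-like and substrate-adherent cells, in 4 groups of 2 biological replicates. All groups had been treated with 10 µM all-trans retinoic acid (ATRA) for 24 h, a treatment that drives these cells towards a neuronal state. The parental group received doxycycline (Dox), and its labels name no empty vector. The ZMYND8 overexpression group expressed FLAG-tagged ZMYND8 and also received Dox, and the methods describe a lentiviral, Dox-inducible vector with Geneticin selection. The overexpressed gene, the transduction and the selection cannot be told apart against the parental group, and "overexpression" below stands for all of them together. The KD control and ZMYND8 knockdown groups carry no Dox in their labels, the KD control libraries are titled control I and control II, and how knockdown was made in this line is not given in the sources used here. No library lacked ATRA, so a response to ATRA itself was not measured.

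The 8 libraries held 38316523 to 56256979 counts on genes, and replicates differed by more than sampling noise in every group. ZMYND8 itself rose from 3089 and 3612 counts in parental cells to 220691 and 182849 with overexpression, and was at 3128 and 3374 in KD control and at 1641 and 1640 with knockdown. The targeted gene thus moved as labelled, with a log2 fold change of 5.86 (adjusted p = 5.04e-12) under overexpression and of -0.94 (adjusted p = 2.2e-06) under knockdown. The perturbations were therefore of very different size. A gene is called changed below where its Benjamini-Hochberg adjusted p in edgeR's quasi-likelihood test was under 0.05, its log2 fold change was at least 1 in size, and its mean normalised count was over 20. Normalised counts are counts scaled to a common effective library size, and n = 2 in every group.

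Receptor genes differed in the base composition of their promoters, and the sequences just upstream of 6 of them are printed because these genes rose under ZMYND8 overexpression from very different starting levels. Each line holds 150 bases on the gene's strand, 5′ to 3′, from the RefSeq promoter table (GRCh38.p14), with each CpG dinucleotide in capitals. ADRA2C (chr4:3766198-3766347, plus strand), CHRM4 (chr11:46391777-46391926, minus strand) and HTR6 (chr1:19664725-19664874, plus strand) had counts in every library. HTR1E (chr6:86937378-86937527, plus strand) had 1 count in each parental library. HTR1A (chr5:63962508-63962657, minus strand) and ADRA2A (chr10:111076879-111077028, plus strand) had none in either. The RefSeq start of CHRM4 lies 5168 bases upstream of the 1-exon model counted here. For ADRA2C and HTR1A the stretch ends at the start of the model counted here, 37 and 62 bases before the RefSeq start.
ADRA2C: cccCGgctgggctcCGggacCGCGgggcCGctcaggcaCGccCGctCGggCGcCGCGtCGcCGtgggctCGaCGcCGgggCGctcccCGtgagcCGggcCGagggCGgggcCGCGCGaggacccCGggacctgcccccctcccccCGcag
CHRM4: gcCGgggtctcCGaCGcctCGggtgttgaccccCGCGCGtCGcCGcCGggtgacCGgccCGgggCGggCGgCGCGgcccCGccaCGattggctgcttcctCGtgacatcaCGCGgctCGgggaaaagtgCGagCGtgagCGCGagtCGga
HTR6: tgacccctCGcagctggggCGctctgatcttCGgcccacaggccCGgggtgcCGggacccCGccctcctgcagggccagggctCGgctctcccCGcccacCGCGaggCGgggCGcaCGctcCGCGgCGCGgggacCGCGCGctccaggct
ADRA2A: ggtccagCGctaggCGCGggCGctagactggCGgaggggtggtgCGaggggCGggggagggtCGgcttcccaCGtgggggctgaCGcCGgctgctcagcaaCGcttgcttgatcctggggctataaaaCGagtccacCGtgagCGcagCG
HTR1E: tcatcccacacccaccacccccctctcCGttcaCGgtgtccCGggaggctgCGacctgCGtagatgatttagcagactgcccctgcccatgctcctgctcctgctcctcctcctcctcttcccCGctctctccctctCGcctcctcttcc
HTR1A: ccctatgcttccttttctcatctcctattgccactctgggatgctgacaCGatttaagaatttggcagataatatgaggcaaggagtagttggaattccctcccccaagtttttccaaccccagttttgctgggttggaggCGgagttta

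The printed stretches hold 26 CpG dinucleotides for ADRA2C, 27 for CHRM4, 20 for HTR6, 16 for ADRA2A, 7 for HTR1E and 2 for HTR1A. Over the 250 bases before the start, counted for the 28 receptor genes in the RefSeq table (for a gene with several starts, the one with most CpG), the 10 genes with more than 3 counts in every library had a median of 26.5 CpG (range 2 to 44). The 9 genes that never reached more than 3 counts in both libraries of a group had a median of 6 (range 2 to 28), and the 9 in between had a median of 10 (range 3 to 32). The median over all 35116 windows of this length, with no such choice among a gene's starts, was 11. The ranges overlapped widely: CHRM5, with counts in every library, had 2 CpG, and DRD5, which had almost none, had 28. Not printed were HTR7, CHRM2 and CHRM3, which also rose under overexpression and had counts in every library. They had 41, 17 and 15 CpG over the 250 bases. This is a description of these windows with no test.

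**Figure D1:**
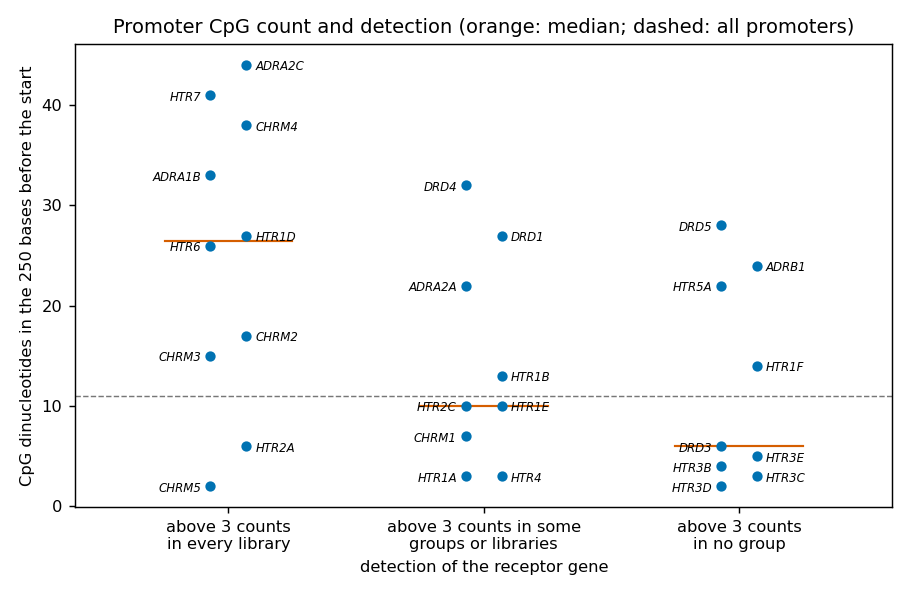
Number of CpG dinucleotides in the 250 bases before the RefSeq start (vertical axis) for 28 receptor genes, by how they were detected in the 8 libraries (horizontal axis), with 1 point per gene, the median of each set in orange and the median of all promoters, 11, as a dashed line. The set with more than 3 counts in every library has the highest median, 26.5, and all 3 sets overlap. A receptor gene with several starts is shown by the start with most CpG, whereas the dashed line takes every start.

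The letters AGGTCA, the half-site of retinoid receptors, on either strand were in the windows of 3 of these 28 genes (CHRM2, HTR1B and HTR6), against 12.1% of all windows. The E-box letters CAGCTG, which read the same on both strands, were in 5 of 28 (HTR1B, HTR2A, HTR3C, HTR5A and HTR6), against 13.99% of all windows. The 2 strings share no overlapping position that would make a match to one a match to the other, and the presence of the letters shows no binding.

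More receptor genes were detected in the overexpression group than in the others. Above 3 counts in both libraries of a group were 17 of the 36 in parental cells, 24 with ZMYND8 overexpression, 16 in KD control cells and 15 with knockdown. Of all 60659 genes the same held for 21254 (35.04%), 23051 (38.0%), 21995 (36.26%) and 21856 (36.03%) in that order. Among the genes with more than 3 counts in every library were ADRA1B, ADRA2C, CHRM2, CHRM3, CHRM4, CHRM5, DRD2, HTR1D, HTR2A, HTR2B, HTR6 and HTR7. Another 5 passed 3 counts in both libraries of the overexpression group alone, namely ADRA1A, ADRA2A, HTR1A, HTR3A and HTR4. The share of all genes detected in that group alone was not counted, and that group had the largest share of all genes detected, 38.0%. DRD3, HTR1F, HTR3D and HTR3E had 0 counts in all 8 libraries, which allows up to 3 counts in each. ADRA2B, ADRB1, ADRB3, DRD5, HTR3B, HTR3C and HTR5A had a few counts (at most 8 in a library) but never more than 3 in both libraries of a group. Counting error alone is covered by these limits.

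The most abundant receptor transcript differed between groups. On a scale of counts per kilobase of exon per 1000000 effective counts, HTR2B, a Gq-coupled serotonin receptor, was highest in parental cells at 2.51 ± 0.165 (SD, n = 2), in KD control cells at 5.89 ± 0.570 and in knockdown cells at 5.694 ± 1.195. With ZMYND8 overexpression ADRA2C stood first at 4.37 ± 0.121, followed by CHRM4 at 2.78 ± 0.068 and HTR6 at 1.61 ± 0.174. HTR2B was at 1.32 ± 0.139 there, next to CHRM3 at 1.38 ± 0.130, and these neighbours did not differ beyond their spread. In parental cells HTR2A at 0.482 ± 0.005 and CHRM4 at 0.479 ± 0.116 were likewise not separated. In KD control cells DRD2 at 1.06 ± 0.112 and ADRA1B at 1.02 ± 0.383 were not separated either. These are low levels throughout, and in RNA from mixed cells fewer cells of a type and less RNA per cell cannot be told apart.

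Summed by coupling class, the overexpression group held most of its receptor RNA in Gi/o-coupled genes and the other groups in Gq-coupled genes. These sums were carried by few genes. HTR2B alone, at a mean of 2.51 in parental, 5.89 in KD control and 5.69 in knockdown cells, made up most of the Gq sums there. ADRA2C, at 4.37, and CHRM4, at 2.78, made up most of the Gi/o sum under overexpression. Of HTR2B's exon bases 25.8% lie opposite PSMD1, with the strand setting of the counting not given. The 14 Gi/o genes summed, on the same per-length scale, to 1.279 and 1.499 in the parental libraries, 10.54 and 11.00 in the overexpression libraries, 2.95 and 2.53 in KD control and 2.27 and 2.35 in knockdown. Their share of the summed level of all 36 genes was 20.3% and 21.7% in parental and 61.1% and 62.7% in overexpression libraries. The 9 Gq genes summed to 4.35 and 4.76 in parental, 4.03 and 3.58 in overexpression, 7.51 and 7.92 in KD control and 7.58 and 9.20 in knockdown libraries. The Gq sums of the overexpression libraries lay below all others, and those of the KD control and knockdown libraries overlapped. The 8 Gs genes summed to 0.682 and 0.648 in parental and 2.33 and 2.43 in overexpression libraries, and to between 0.736 and 0.984 in the other 4. The 5 HTR3 channel genes summed to 0.364 and 0.521 with overexpression and to at most 0.0114 in every other library.

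**Figure D2:**
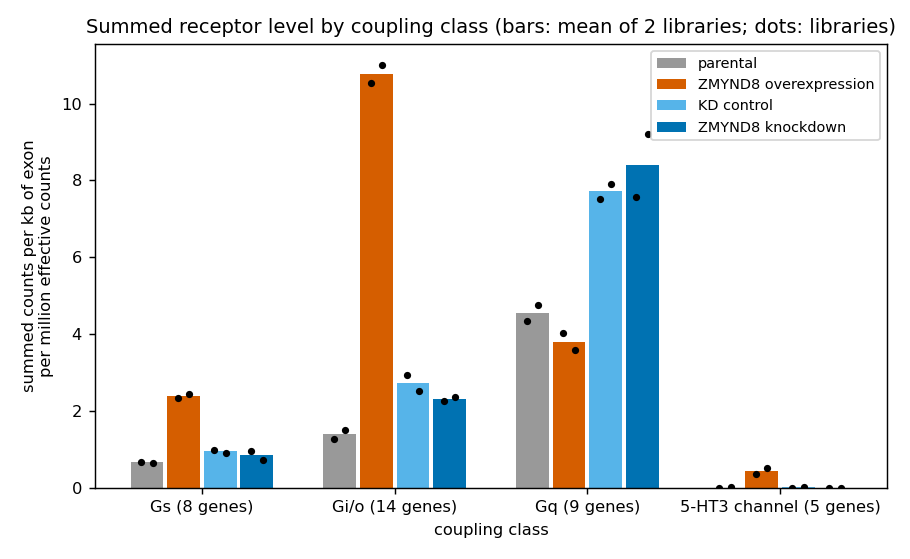
Summed level of the receptor genes of each coupling class (vertical axis, counts per kilobase of exon per 1000000 effective counts, from 0), with bars for the mean of 2 libraries and dots for the libraries. The Gi/o sum of the overexpression libraries, 10.54 and 11.00, is the highest of its class, and the Gq sums of KD control and knockdown libraries, 7.51 to 9.20, stand above those of the other groups.

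The first comparison asked how the receptor genes differed when ZMYND8 was overexpressed during ATRA treatment. Of the 36 genes, 22 had enough counts to be tested, 12 of these were called higher and 2 lower. Among all 20835 genes tested, 11.8% were called higher and 6.84% lower. Without the fold and level thresholds, 16 receptor genes were higher and 3 lower at an adjusted p under 0.05, where 31.7% of all genes were higher and 29.1% lower. The median log2 fold change over the 22 was 2.90, against 0.03 for all genes, and 2.40 with the 5 genes at 0 in both parental libraries set to their lower bound. Of the 22, 11 passed the count filter only through the overexpression libraries and so had to be higher. Over the 11 that passed it on the counts of the parental libraries, 10 of which also passed it on those of the overexpression libraries, the median was 0.74, with 5 called higher and 2 lower.

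**Figure D3:**
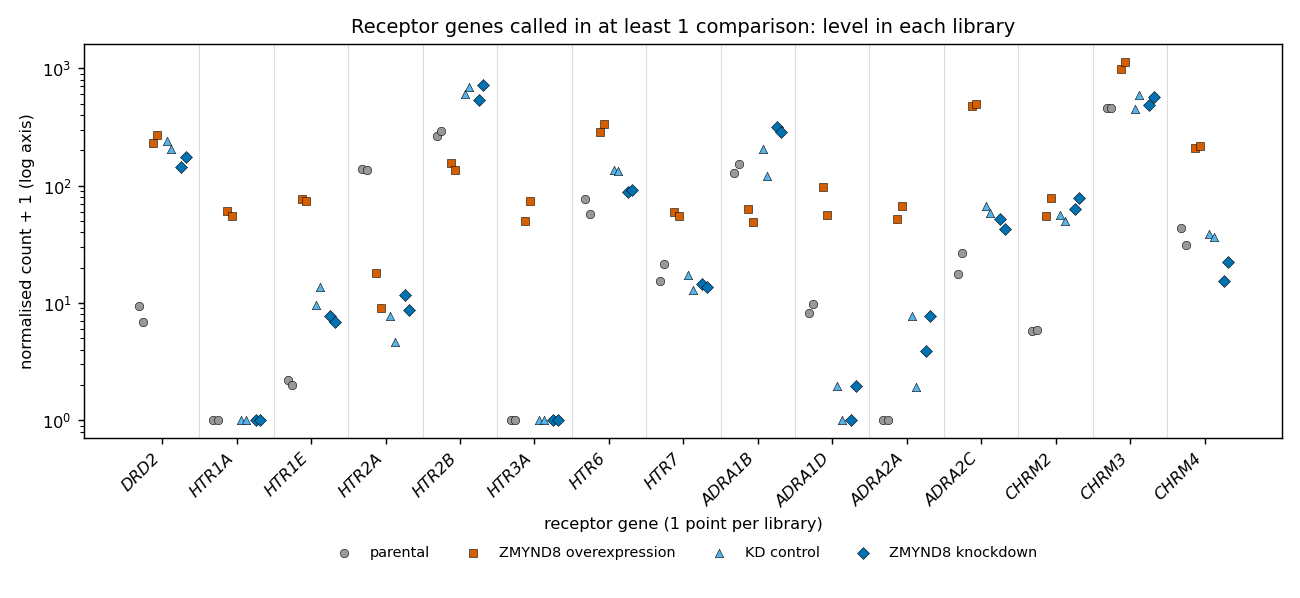
Normalised count plus 1 (vertical log axis) of the 15 receptor genes called in at least 1 comparison, with 1 point per library, coloured by group. Overexpression libraries stand above the other 6 for HTR1A, HTR1E, HTR3A, HTR6, HTR7, ADRA1D, ADRA2A, ADRA2C, CHRM3 and CHRM4, whereas for DRD2 and CHRM2 the parental libraries stand below all others.

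Of the 14 Gi/o-coupled genes, 9 were tested and 7 called higher, none lower. Of these 7, DRD2, ADRA2A, HTR1A, HTR1E and CHRM2 passed the count filter only through the overexpression libraries and so had to be higher. ADRA2C and CHRM4 passed it on the counts of the parental libraries. DRD2 (chr11:113409605-113475691 in the count table, hg38), the receptor that many antipsychotic drugs block, had 7 and 6 counts in parental libraries and 246 and 233 in overexpression libraries. It had 246 and 223 counts in KD control and 149 and 180 in knockdown libraries. The parental libraries alone were low. Under overexpression it rose by a log2 fold change of 5.14 ± 0.263 (SE, adjusted p = 4.44e-08), from a normalised mean of 6.71 ± 1.62 to 237 ± 24.1 (SD, n = 2).

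ADRA2C (chr4:3766348-3768526), an alpha-2 autoreceptor of adrenergic neurons, had 14 and 26 parental counts, 502 and 427 with overexpression, 69 and 63 in KD control and 53 and 43 with knockdown. Both overexpression libraries were far above the other 6. Its log2 fold change was 4.49 ± 0.191 (adjusted p = 1.08e-08). ADRA2A (chr10:111077029-111080907), the closely related receptor through which clonidine lowers blood pressure, was at 0 in each parental library and at 54 and 57 with overexpression, at least 17-fold higher when each parental library is set at 3 counts. It had 7 and 1 counts in KD control and 3 and 7 in knockdown libraries.

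The serotonin autoreceptor HTR1A (chr5:63957874-63962507) had 64 and 47 counts in the overexpression libraries and 0 in each of the other 6. It was at least 17-fold higher than in parental cells. HTR1E (chr6:86937528-87016679), a less studied member of the HTR1 group, had 1 and 1 parental counts, 80 and 64 with overexpression, 9 and 14 in KD control and 7 and 6 with knockdown. The parental libraries were lowest, and the ratio of overexpression to parental counts was 69.8 (95% exact binomial interval 18.96 to 581.4, counting error only). HTR1B and HTR1D, which are targets of the triptans, were tested and were not called: HTR1B had 10 and 31 parental and 39 and 31 overexpression counts (adjusted p = 0.128), and HTR1D had 42 and 75 against 81 and 62 (adjusted p = 0.395).

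CHRM2 (chr7:136868669-137020255), the muscarinic receptor that slows the heart, had 4 and 5 parental, 58 and 67 overexpression, 57 and 53 KD control and 64 and 79 knockdown counts. As for DRD2, the parental libraries alone were low. It rose by 3.73 ± 0.389 on the log2 scale (adjusted p = 1.22e-05). CHRM4 (chr11:46385098-46386608), a muscarinic receptor of the striatum, had 36 and 31 parental and 222 and 188 overexpression counts, but 39 and 39 in KD control and 15 and 22 in knockdown libraries. Here the overexpression libraries alone were high. Its log2 fold change was 2.56 ± 0.211 (adjusted p = 1.97e-06). DRD4, which was too low to test, had 4 and 5 against 10 and 6 counts, and nearly all of its sequence is also present on an alternate contig of the genome.

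Of the 8 Gs-coupled genes, 5 were tested and 2 were called higher. HTR6 (chr1:19664875-19680966), a brain serotonin receptor, had 64 and 57 parental, 303 and 289 overexpression, 140 and 145 KD control and 90 and 94 knockdown counts, with no overlap between any 2 groups. It rose by 2.24 ± 0.185 under overexpression (adjusted p = 1.91e-06). HTR7 (chr10:90740823-90858039), a receptor linked to circadian timing, had 12 and 21 parental and 62 and 47 overexpression counts, and 13 to 17 in the other 4 libraries. It rose by 1.67 ± 0.298 (adjusted p = 0.000645), and 17.9% of its 31-base windows also occur elsewhere in the genome. DRD1, the main dopamine receptor of striatal output neurons that stimulate movement, had 5 and 12 against 21 and 24 counts. It passed the adjusted p (0.0228) with a mean normalised count of 15.4, below the level threshold. HTR4 had 0 in both parental libraries and 13 and 10 with overexpression, at least 3-fold higher, also below that level.

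Of the 9 Gq-coupled genes, 7 were tested, and they went both ways: 2 were called higher and 2 lower. CHRM3 (chr1:239386565-239915452), the muscarinic receptor of glands and smooth muscle, had 383 and 471 parental, 1054 and 985 overexpression, 468 and 640 KD control and 499 and 589 knockdown counts. Only the overexpression libraries were high, by 1.22 ± 0.092 on the log2 scale over parental (adjusted p = 9.96e-07). ADRA1D (chr20:4220630-4249287), an alpha-1 receptor of blood vessels, had 6 and 9 parental and 103 and 48 overexpression counts, and at most 1 in each KD control and knockdown library. It rose by 3.24 ± 0.397 (adjusted p = 4.27e-05), although its overexpression libraries differed widely from each other. ADRA1D, too, passed the count filter only through the overexpression libraries. ADRA1A had 0 parental counts and 30 and 28 with overexpression, at least 9-fold higher, at a mean below the level threshold.

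HTR2A (chr13:46831546-46897076), the receptor through which classical hallucinogens act, fell most. It had 116 and 139 parental counts, 18 and 7 with overexpression, 7 and 4 in KD control and 11 and 8 with knockdown. The parental libraries alone were high, and the log2 fold change under overexpression was -3.39 ± 0.299 (adjusted p = 3.25e-06). ADRA1B (chr5:159865080-159973012), an alpha-1 receptor of liver and heart, had 107 and 154 parental, 66 and 42 overexpression, 213 and 130 KD control and 329 and 294 knockdown counts. It fell by 1.32 on the log2 scale under overexpression (SE 0.213, adjusted p = 0.000331). HTR2B (chr2:231108230-231125042) had 221 and 295 parental and 166 and 117 overexpression counts, a log2 fold change of -0.91 ± 0.147 (adjusted p = 0.000325) that missed the fold threshold. Of its exon bases 25.8% lie opposite PSMD1, and the sources used here do not say whether the counting used strand.

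Of the 5 HTR3 channel genes, HTR3A (chr11:113974881-113990313), the subunit every 5-HT3 channel needs, was the one tested. It had 52 and 63 counts in the overexpression libraries and 0 in the other 6, at least 18-fold higher than in parental cells. Its partner HTR3B had 4 and 1 counts with overexpression and at most 3 in any other library. HTR3C had 1 count in all, and HTR3D and HTR3E had none.

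DRD2, HTR3B and HTR3A lie in this order on chromosome 11, with other genes between DRD2 and HTR3B. The other protein-coding genes from 300000 bases before DRD2 to 300000 bases after HTR3A, examined after the receptors' values were seen, did not move as one. The cell adhesion gene NCAM1 rose under overexpression (log2 fold change 1.03, adjusted p = 2.1e-08), and NNMT, which methylates nicotinamide, fell (log2 fold change -2.56, adjusted p = 7.49e-10). TTC12, which lies before DRD2, and ZW10 and USP28, which lie between DRD2 and HTR3B, had log2 fold changes of -0.10, -0.20 and -0.18. TMPRSS5, next to DRD2 on the side of HTR3B, had 6 and 15 parental and 26 and 26 overexpression counts. Its log2 fold change was 1.27 (adjusted p = 0.0221 in the edgeR test), and it was not called. ZBTB16, a zinc finger gene next to HTR3A, had 35 and 19 counts with overexpression and 0 in the other 6 libraries, as HTR3A did, at a mean below the level threshold.

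The second comparison asked how the same genes differed when ZMYND8 was knocked down. Here 12 of the 36 were tested, none was called higher and 1 was called lower. Among 19789 genes tested, 1.36% were called higher and 0.596% lower. At an adjusted p under 0.05 alone, 2 receptor genes were higher, where 13.4% of all genes were, and 2 were lower, where 10.8% were. At an unadjusted p under 0.05 in the same edgeR test, ADRA1B and HTR1D were higher and HTR6, CHRM4 and DRD2 lower. The share of all genes under that unadjusted p was not counted. The median log2 fold change over the 12 was -0.08, against -0.01 for all genes.

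The gene called was CHRM4, with 39 and 39 counts in KD control and 15 and 22 in knockdown libraries. Its log2 fold change was -1.02 ± 0.312 (adjusted p = 0.0368). That call was lost in DESeq2 (adjusted p = 0.195), without the filter on low counts (adjusted p = 0.0803), and without KD control replicate 1 (adjusted p = 0.144), KD control replicate 2 (adjusted p = 0.137) or knockdown replicate 1 (adjusted p = 0.167). HTR6 had a log2 fold change of -0.58 ± 0.167 (adjusted p = 0.0286), from a normalised mean of 140 ± 0.990 to 93.6 ± 2.78 (SD, n = 2). Its adjusted p was 0.121 in DESeq2, 0.0641 without the filter on low counts, and 0.109, 0.111 and 0.0794 without KD control replicate 1, KD control replicate 2 and knockdown replicate 1. DRD2 had a log2 fold change of -0.46 ± 0.156 (adjusted p = 0.0542), with an interval of -0.77 to -0.16, and its knockdown libraries lay below both KD control libraries. The knockdown libraries of ADRA1B, at 329 and 294 counts, lay above the KD control libraries, at 213 and 130, with a log2 fold change of 0.90 ± 0.211 (adjusted p = 0.0106). HTR1D, at 97 and 84 against 57 and 44 counts, had 0.89 ± 0.226 (adjusted p = 0.0162). Both missed the fold threshold, and without KD control replicate 1 both passed it, ADRA1B with a log2 fold change of 1.34. Without KD control replicate 2 the values were 0.56 (adjusted p = 0.0653) for ADRA1B and 0.68 (adjusted p = 0.136) for HTR1D, and without the filter on low counts the adjusted p was 0.0815 for ADRA1B and 0.059 for HTR1D. HTR1D had an adjusted p of 0.0604 in DESeq2.

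For 6 further tested genes the knockdown gave no call, and the intervals show what sizes remain possible. The log2 difference was 0.03 (interval -0.24 to 0.29) for CHRM3, -0.05 (-0.31 to 0.21) for HTR2B, 0.43 (-0.01 to 0.86) for CHRM2, -0.41 (-0.86 to 0.04) for ADRA2C, -0.10 (-0.94 to 0.73) for HTR7 and -0.78 (-1.73 to 0.17) for CHRM5, which had 16 and 18 counts in KD control and 6 and 13 in knockdown libraries. Intervals are the fitted value plus or minus 1.96 standard errors, a normal multiplier that makes them somewhat too narrow with 2 libraries per group. A fold of 2 either way lies outside the interval for CHRM3, HTR2B, CHRM2 and ADRA2C. For HTR7 the lower limit of -0.94 is too close to a 2-fold decrease to set that size aside, and a 2-fold decrease lies inside the interval of CHRM5. HTR1A and HTR3A were at 0 counts in all KD control and knockdown libraries, so a decrease could not have been seen.

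**Figure D4:**
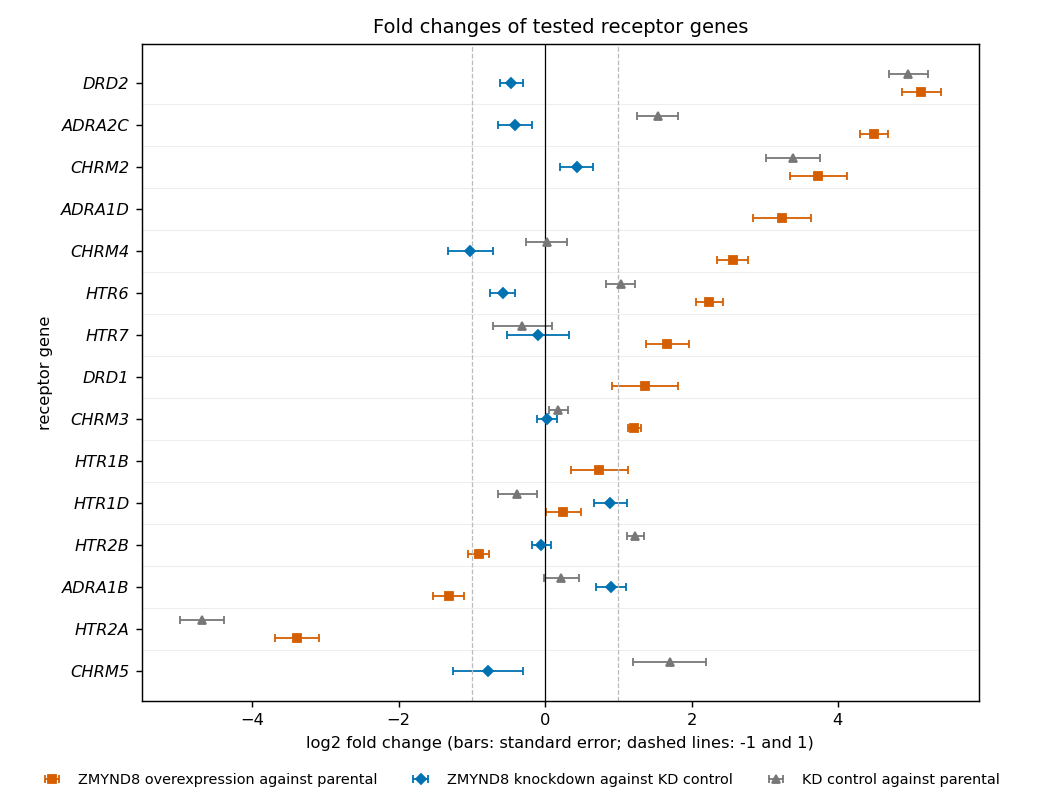
Log2 fold change (horizontal axis) with its standard error for 15 tested receptor genes, each with more than 3 counts in at least 1 library of both groups compared (which leaves out HTR1E and HTR2C under overexpression), in 3 comparisons marked by colour and shape, with dashed lines at -1 and 1. The overexpression values run from -3.39 for HTR2A to 5.14 for DRD2, and the knockdown values lie between -1.02 for CHRM4 and 0.90 for ADRA1B.

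The 2 control groups differed from each other by as much as the overexpression group differed from its control for some of these genes. By the labels the parental cells received Dox and the KD control cells carry a control for knockdown with no Dox named. Any other difference between these groups is not given in the sources used here, and such differences cannot be told apart. The comparison shares the parental libraries with the overexpression comparison and the KD control libraries with the knockdown comparison, so its values are given side by side with those and not as separate support. Of 36 genes 14 were tested, 5 were called higher in KD control and 1 lower, where 10.8% of 20385 genes were called higher and 10.8% lower. DRD2 was higher by 4.96 ± 0.265 on the log2 scale (5.14 under overexpression against parental). CHRM2 was higher by 3.39 ± 0.367 (3.73), ADRA2C by 1.54 ± 0.280 (4.49), HTR2B by 1.23 ± 0.115 (-0.91) and HTR6 by 1.03 ± 0.202 (2.24). With trends on gene length and GC content taken out, ADRA2C was higher by 2.41 (3.94 under overexpression) and HTR6 by 1.68 (1.82).

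HTR2A was lower in KD control cells, with a log2 fold change of -4.69 ± 0.298 (-3.39 under overexpression). HTR1B had 10 and 31 parental counts and 3 and 1 in KD control, a ratio of 0.0856 (95% exact binomial interval 0.0223 to 0.236, counting error only), at a mean below the level threshold. By contrast CHRM4 had a log2 difference of 0.02 ± 0.276 and CHRM3 of 0.18 ± 0.129 between the controls. HTR6 lost its call without parental replicate 2 (log2 fold change 0.82), and CHRM2 without KD control replicate 1, where its mean count fell to 19.2 at a log2 fold change of 3.31.

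The effect of overexpression was also set against the effect of knockdown in 1 fit over all 8 libraries, in which the difference between the log2 fold changes was tested. Of 23 receptor genes tested, 8 had a higher and 2 a lower effect under overexpression than under knockdown by the same thresholds, where 11.1% and 7.66% of 22619 genes did. The difference was 5.60 ± 0.321 for DRD2 (adjusted p = 1.81e-09), 4.90 ± 0.302 for ADRA2C (adjusted p = 4.13e-09), 3.57 ± 0.366 for CHRM4 (adjusted p = 1.11e-06) and 2.82 ± 0.256 for HTR6 (adjusted p = 2.98e-07). It was -2.23 ± 0.329 for ADRA1B (adjusted p = 4.81e-05), which had fallen with overexpression and lay higher with knockdown. The DRD2 difference rests on the parental level, since its parental libraries alone were low. Among the 23 were HTR1A, HTR3A, ADRA1A, ADRA2A and HTR4, which had 0 counts in both libraries of at least 1 group. A difference could not be estimated for these genes.

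Genes that act with the receptors were taken from 9 lists of 86 genes. The lists were chosen with earlier results of these data known, so the shares below are a description with no test. In the overexpression comparison 80 were tested, 22 were called higher (27.5%, against 11.8% of all genes) and 6 lower (7.5%, against 6.84%). How many of the 22 passed the count filter only through the overexpression libraries was not counted. In the knockdown comparison 71 were tested and 1 was called higher (1.41%, against 1.36% of all genes), none lower (against 0.596%). Between the control groups 71 were tested, with 19 called higher in KD control (26.8%, against 10.8%) and 8 lower (11.3%, against 10.8%). That comparison shares the parental libraries with the overexpression comparison, and its values are given beside those of the overexpression comparison for the genes below. The calls fell unevenly over the lists.

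Among the G alpha subunits, 3 of 10 tested were called higher under overexpression and none lower. GNAO1, the Go subunit of neurons, had 69 and 101 parental, 2139 and 1815 overexpression, 1489 and 1576 KD control and 1112 and 1089 knockdown counts, with a log2 fold change of 4.50 ± 0.100 under overexpression (adjusted p = 1.2e-10). GNAZ, another inhibitory subunit, had 1.86 ± 0.086, and GNAL, which links DRD1 to adenylyl cyclase in the striatum, had 1.06 ± 0.325. Of 9 adenylyl cyclases, the calcium-stimulated ADCY1 (log2 fold change 4.13 ± 0.082) and ADCY5, the main form of the striatum (3.09 ± 0.133), were called higher. Of the 4 phospholipase C beta genes, the effectors of Gq, PLCB1 was called lower, with 5407 and 6416 parental and 1562 and 1287 overexpression counts and a log2 fold change of -2.10 ± 0.051 (adjusted p = 2.1e-10). Between the control groups, KD control against parental, the log2 fold change was 3.99 for GNAO1, 2.85 for ADCY1 and -1.32 for PLCB1, all called, and 1.01 for GNAZ, also called. ADCY5 at 0.95 was not called there, nor was GNAL, at -1.43. None of the 7 protein kinase A subunit and DARPP-32 genes was called, and PPP1R1B, which encodes DARPP-32, had 1 and 0 against 33 and 31 counts at a mean below the threshold.

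Of 11 cAMP phosphodiesterases tested, PDE3B was called higher (1.61 ± 0.084) and PDE3A lower (-1.53 ± 0.122). Of the 7 receptor kinases and arrestins, which switch active receptors off, GRK3 (2.52 ± 0.052) and GRK4 (1.12 ± 0.111) were called higher. The RGS proteins, which speed the inactivation of G alpha subunits, went both ways, with 4 of 15 tested higher and 3 lower. RGS8 had 3 and 9 parental and 210 and 170 overexpression counts (4.92 ± 0.303), RGS7 had 2.96 ± 0.293 and RGS16 had 2.53 ± 0.103. RGS8 passed the count filter only through the overexpression libraries and so had to be higher. RGS7, with 8 and 16 parental counts, did not pass it on the parental libraries alone. In KD control against parental cells the log2 fold change was 3.34 for GRK3, 3.73 for RGS8, 1.96 for RGS7 and 2.62 for RGS16, all called, and -1.36 for PDE3A, called lower. RGS7 was also the signalling gene called under knockdown, at 53 and 54 counts in KD control against 129 and 107 (log2 fold change 1.19 ± 0.199, adjusted p = 0.00162), so that it was higher with both perturbations, each against its own control.

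Of the genes for transmitter clearance, 5 of 6 tested were called higher under overexpression. The acetylcholine-splitting enzyme BCHE had 5 and 10 parental and 170 and 147 overexpression counts (4.34 ± 0.279), the monoamine oxidase MAOB had 3.44 ± 0.094, and the noradrenaline transporter SLC6A2 had 2.73 ± 0.078. In KD control against parental cells 5 clearance genes were tested, 4 were called higher and 1 lower, with log2 fold changes of 3.20 for MAOB and 2.30 for SLC6A2. Of the receptor partners, 5 of 11 were called higher and 1 lower. They include the potassium channel subunits that Gi/o-coupled receptors open. KCNJ6 had 237 and 176 counts with overexpression and 0 in the other 6 libraries, at least 65-fold higher. KCNJ9 had 11 and 7 parental, 362 and 378 overexpression, 124 and 133 KD control and 143 and 123 knockdown counts (5.31 ± 0.264 under overexpression, 3.62 ± 0.290 in KD control against parental cells), and KCNJ5 had 2 and 3 against 33 and 44 counts (3.85 ± 0.513). Genes with so few parental counts, such as BCHE, KCNJ6 and KCNJ5, passed the count filter only through the overexpression libraries and so had to be higher. KCNJ9, with 11 and 7 parental counts, did not pass it on the parental libraries alone.

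**Figure D5:**
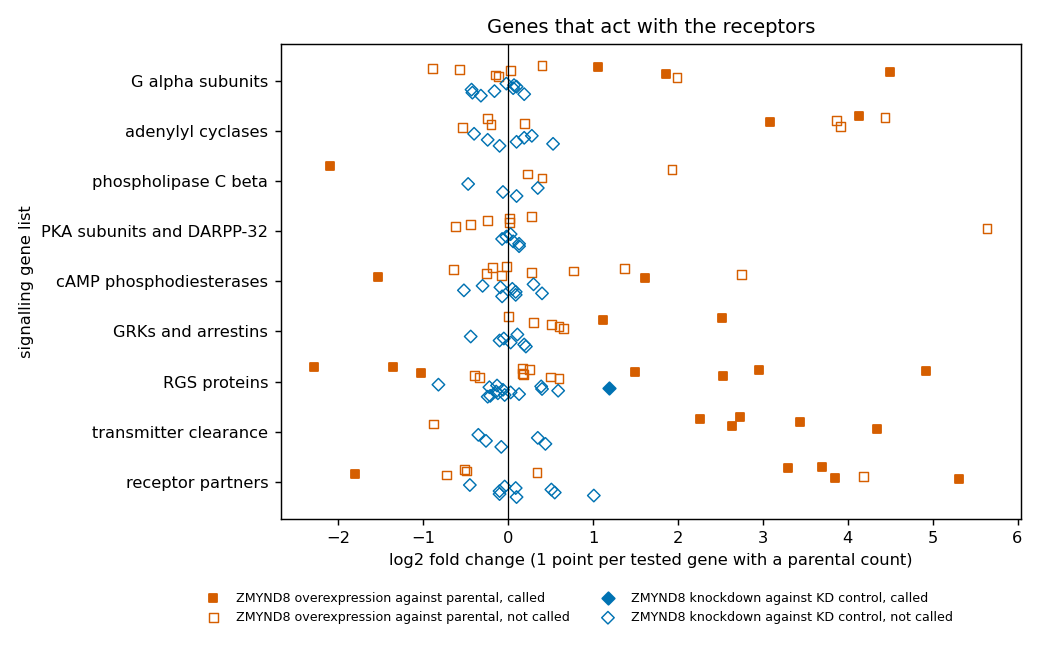
Log2 fold change (horizontal axis) of the tested genes of 9 signalling lists that had a parental count, 1 point per gene, filled where called, for ZMYND8 overexpression against parental (orange) and knockdown against KD control (blue). Under overexpression all 5 called clearance genes and both called adenylyl cyclases lie to the right and PLCB1 at -2.10 to the left, and under knockdown RGS7 at 1.19 is the single filled point.

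Markers of cell state moved with the groups in the same libraries. Of 10 markers of the adrenergic (neuroblast-like) neuroblastoma state, 9 were tested under overexpression and 6 called higher, none lower, and their summed per-length level was 128 in each parental library, 396 and 423 with overexpression, 359 and 385 in KD control and 296 and 347 with knockdown. Of 8 mesenchymal markers, 5 were called lower and 1 higher, and their sum was 1209 and 1264 in parental, 558 and 526 in overexpression, 604 and 586 in KD control and 765 and 735 in knockdown libraries. The parental libraries had the lowest adrenergic and the highest mesenchymal sums. None of the 18 markers of these 2 lists was called under knockdown. The adrenergic list's TH, the enzyme that starts noradrenaline synthesis, had 0 to 5 counts in every library, whereas DBH, a later enzyme of the same route, had 260 to 2352. Of 5 Schwann and glial markers S100B was called higher and SOX10 had at most 1 count, with a summed level of 0.567 to 1.81, and of 4 blood and endothelial markers PECAM1 was called lower, PTPRC and CDH5 had at most 2 counts, and the sum was 0.00961 to 0.291. The part of these markers in the receptor results was not tested.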

How the data were processed

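The 8 RNA-seq libraries of SK-N-SH cells fall into 4 groups of 2 biological replicates by the sample labels. The values deposited by the authors are raw read counts per gene. Per the study's methods, Trim_Galore removed low-quality reads (Phred cut of 25), HISAT2 placed the rest on GRCh38 and featureCounts counted them over GENCODE genes (release 28 as stated). Versions and strand setting were not given in the sources used here. The deposited table also gives each gene's summed exon length in bases, a column of another kind that was used for the per-length levels. Of 60662 lines, 3 fragments of 1 gene were left out.

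Names came from GENCODE 44 by gene identifier, which matched 60418 of 60659 genes. Comparisons were fitted with edgeR 4.0.16 (TMM scaling, filterByExpr, quasi-likelihood test, R 4.3.3), with p-values adjusted over all genes tested. The named genes were every receptor gene called in at least 1 comparison, DRD2, and at most 3 called genes of each signalling list by size of change; other genes were named after their values were seen. Members and lists were chosen with earlier results of these data known. Against a group at 0, folds were bounded at 3 counts per library. Alternatives were RLE scaling, DESeq2 1.42.0, no filter, all libraries in 1 fit, a replicate block, length and GC trends taken out, other thresholds, and each library left out. On simulated counts for overexpression against parental, the edgeR step recovered 200 of 200 changed genes with 4 false calls among 20559. For the difference of effects it recovered 196 of 200 with 9 false calls. The changed genes had expected counts over 100 and log2 changes of 2 either way. Recovery at lower counts or smaller changes, as for many receptor genes, was therefore not measured. Library totals of 38316523 to 56256979 counts and 2 replicates set the precision, with p-values measuring the spread between these samples. Values of 1 receptor gene are not reported here, though it stays in the counts. Among the symbols without a RefSeq promoter window were HTR3A, ADRA1D, ADRA2B, HTR2B, ADRB3, ADRA1A and DRD2.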

Additional observations from a re-analysis of the deposited data

Results flagged for a closer look

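For 10 receptor genes the effect of ZMYND8 overexpression differed from the effect of knockdown in a test of the difference itself (log2 scale, edgeR over 8 libraries). The difference was 5.60 for DRD2, 4.90 for ADRA2C, 3.57 for CHRM4, 2.82 for HTR6, 1.18 for CHRM3 (adjusted p = 5.24e-05), 1.77 for HTR7 (adjusted p = 0.00793) and 3.30 for CHRM2 (adjusted p = 2.82e-05), each higher with overexpression. It was 6.72 for HTR1E (adjusted p = 1.79e-06), a value that rests on 1 count in each parental library. It was -2.23 for ADRA1B and -4.22 for HTR2A (adjusted p = 4.75e-05), each lower with overexpression. For DRD2, CHRM2 and HTR2A the parental libraries stood apart from all others. The log2 fold change of KD control against parental was 4.96, 3.39 and -4.69 for these genes, so their differences rest on the parental level. For HTR2A the KD control and knockdown libraries held 4 to 11 counts, so that the knockdown effect was measured near the limit of detection. The size of the overexpression, a log2 fold change of 5.86 in ZMYND8, and that of the knockdown, -0.94, differ, and their part in these differences was not tested.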

How the results depend on the processing

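With 2 replicates and counts often under 100, the calls of low receptor genes depended on the thresholds. Under overexpression, 12 genes called higher became 5 with a mean normalised count over 100, and the 2 called lower became 0. With 1 library left out, the number called higher ran from 9 to 13 and the number lower from 2 to 3. ADRA2A and HTR1A lost the call without either overexpression replicate and in the fit of all 8 libraries, and HTR3A without overexpression replicate 2 and in that fit, in each case with a mean normalised count of 20 or below. HTR1B was called higher without parental replicate 2 and HTR2B lower without overexpression replicate 1.

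The median log2 fold change over tested receptor genes, 2.90 under overexpression, was 2.39 in DESeq2, 2.42 without the filter, 2.55 in the fit of all 8 libraries, 2.55 with length and GC trends taken out, 2.52 with those and the replicate block together, and 2.04 to 2.58 with 1 library left out. For knockdown it was -0.27 to -0.13 with 1 library left out. Between the controls it was 0.20, and 0.45 in DESeq2, 0.41 without the filter, 0.59 with length and GC trends taken out, 0.57 with those and the block, and 0.06 to 0.82 with 1 library left out.

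Under knockdown the single lower call became 0 in DESeq2, without the filter and with a mean over 100, and 0 to 1 with 1 library left out. Without the fold threshold there were 2 higher and 2 lower. Calls higher ran from 0 to 2 with 1 library left out. Between the controls a mean over 100 left 2 higher and 0 lower, the fit of all 8 libraries gave 2 lower (ADRA1D added), and leaving out 1 library gave 4 to 5 higher. For the difference of effects a mean over 100 left 4 higher and 1 lower, and leaving out 1 library gave 7 to 8 higher and 2 to 3 lower. HTR7 lost that call in DESeq2 and without KD control replicate 1, CHRM3 without KD control replicate 2 and HTR1E without either overexpression replicate, and HTR2B gained one without knockdown replicate 1.

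Replicate numbers showed no pairing (correlation of deviations 0.0097, -0.011 and -0.028), and the replicate block alone changed no count of calls, with 12 higher and 2 lower under overexpression. Changes of direction were confined, among the named receptor genes, to values that were not called. For CHRM3 under knockdown they were -0.03 with length and GC trends taken out, -0.02 with those and the block, and -0.16 to 0.23 over the fits without 1 library. Over the fits without 1 library HTR2B under knockdown ran from -0.27 to 0.15 and HTR7 from -0.32 to 0.13. Between the controls CHRM3 had -0.23 with length and GC trends taken out, -0.24 with those and the block, and -0.02 to 0.36 without 1 library, ADRA1B had -0.22 to 0.56 without 1 library, and CHRM4 had -0.0011 in DESeq2, -0.0038 without the filter and -0.22 to 0.26 without 1 library. Of the other 503 values of named genes under alternatives, 480 kept direction and call. The causes were not tested.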
